A study of Mus musculus with 33 samples.

Results

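Hif1a, Adm, Vegfa, Ndrg1, Slc2a1, Pgk1, Ldha, Pdk1 and Bnip3 are genes of the cellular response to low oxygen and of glycolysis. They were taken by symbol as a named list of 9 genes. All 9 were among the 12348 genes of the mRNA table and among the 12344 that passed a filter on low values. They were followed in cultured basal cells of the mouse esophagus after deletion of Nudt21, which encodes CFIm25, a subunit of the cleavage factor that steers the choice of poly(A) site. Hypomorph cells received 0.05 µM 4-hydroxytamoxifen together with 50 ng/ml doxycycline for 4 or 6 days. KO cells received 0.05 µM 4-hydroxytamoxifen alone for 2, 4 or 6 days. Control cells (day 0) received ethanol for 4 days and kept their floxed alleles. Each of these 6 groups had 3 poly(A)-selected mRNA libraries. The hypomorph groups, and no others, had doxycycline, so its effect and that of the hypomorph state cannot be told apart. The genotype labels of the PAS-seq and small RNA samples name Nudt21 fl/fl with R26CreER, an inducible Cre recombinase at a locus active in most cell types; those of the mRNA samples name only floxed, KO or hypomorph Nudt21. All cells grew in SAGM medium with the inhibitors Y-27632, CHIR99021, A83-01 and DMH-1, and the oxygen level of the cultures is not given in the sources used here. No label says that the libraries of a group came from separate cultures, and the spread on which the p-values rest may therefore be technical.

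Cells answer low oxygen mainly through hypoxia-inducible factor, a pair of proteins made of an oxygen-labile α subunit, such as the product of Hif1a, and a stable β subunit, the product of Arnt. With oxygen present, prolyl hydroxylases mark the α subunit and the Vhl protein directs its destruction, so its activity is set largely at the protein level. The pair binds short DNA elements with the core letters ACGTG or GCGTG and raises genes for glucose uptake, glycolysis, vessel growth and the turnover of mitochondria.

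Both motifs were searched on both strands in the RefSeq promoter windows (GRCm38.p6, 250 bases before to 50 after a gene start), since the 9 genes are grouped for their link to this factor. Windows were at hand for 8 of the 9 genes, 11 windows in all. ACGTG occurred in 6 of the 11 windows, beside 25.2% of the windows of all tested genes. GCGTG occurred in 7 of the 11, beside 50.4%. Either motif occurred in 9 of the 11, beside 61.7%, and each of the 8 genes had a window with at least 1 of them. A match describes the letters and not a bound site. The following stretches of 25 bases hold 1 chosen match each in capitals, for the gene that moved furthest (Adm), for 3 genes of glucose uptake and glycolysis, and for the gene of the steadiest fall (Pdk1). The seeds of both arms of miR-210, a microRNA known for its induction by hypoxia, are in capitals in the same way.
Adm (chr7:110627593-110627617, minus strand): cggacggtggGCGTGgtcagatttg
Slc2a1 (chr4:119108699-119108723, plus strand): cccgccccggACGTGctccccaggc
Pgk1 (chrX:106186940-106186964, plus strand): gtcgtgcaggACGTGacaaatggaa
Ldha (chr7:46845747-46845771, plus strand): cccagcctacACGTGggttcccgca
Pdk1 (chr2:71873212-71873236, plus strand): gcctacggggGCGTGgttccagcga
miR-210-3p (chr7:141221407-141221428, minus strand): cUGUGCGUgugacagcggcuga
miR-210-5p (chr7:141221445-141221466, minus strand): aGCCACUGcccaccgcacacug

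Libraries held 16.3 to 91.4 M reads on listed genes. Control libraries had 16.3 to 19.0 M and KO day 2 libraries 52.2 to 69.6 M. Nudt21 measured 12.2, 14.2 and 12.2 scaled CPM (CPM, counts normalised to library size, rescaled by the authors) in control libraries, 3.21, 2.77 and 3.09 in KO day 2, 2.70, 2.44 and 3.95 in KO day 4, and 2.01, 1.34 and 1.78 in KO day 6 libraries. In hypomorph libraries it measured 4.91, 6.25 and 3.85 at day 4 and 3.94, 0.999 and 3.38 at day 6. Nudt21 in hypomorph against KO cells missed the threshold at day 4 (log2 0.64 ± 0.28, limma adjusted p = 0.101). It also missed it at day 6 (log2 0.43 ± 0.28, limma adjusted p = 0.187), and the libraries overlapped on both days. It was below every control library in all 15 others, and which exon was deleted is not given in the sources used here. The 8 basal markers summed to 28024 to 33730 scaled CPM in every library. Single markers within that sum moved both ways, as with these, named after their values were seen. In KO day 6 libraries Krt14 measured 6042 to 6597 and Col17a1 5295 to 5914, against 8425 to 8771 and 2696 to 3089 in control. In hypomorph day 6 libraries Sox2 measured 31.0 to 34.8 and Col17a1 3950 to 4865.5, against 56.9 to 68.1 for Sox2 in control libraries. The 5 suprabasal markers (Krt4, Krt13, Ivl, Sbsn, Tgm1) summed to 4850 to 6585 in KO day 6 libraries, 1352 to 1551 in hypomorph day 6 libraries and 845 to 2854 in control libraries. Of the endothelial markers only Tek was listed, at 0.0547 to 2.80 scaled CPM. Among leukocyte markers Ptprc reached 15.9 and Laptm5 3.52 scaled CPM at most, while Cd68 measured 444 to 498 in KO day 6, 469.7 to 510.4 in hypomorph day 6 and 62.9 to 81.3 in control libraries. The liver gene Alb measured 5.61 to 762 scaled CPM and was over 100 in 7 libraries, of which 2 were control, 1 KO day 2, 2 KO day 4 and 2 KO day 6.

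The 9 genes did not move as one set. Hif1a, Adm, Vegfa and Ndrg1 were higher than control by day 6, more so in hypomorph than in KO cells, and Adm moved furthest. Pgk1, Ldha, Pdk1 and Bnip3 were lower than control in KO cells at days 4 and 6, and Slc2a1 at day 4. In hypomorph cells at day 6 these 5 stood above the KO level of the same day, and Slc2a1 and, on the authors' scale, Pgk1 also above the control level.

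**Figure D1:**
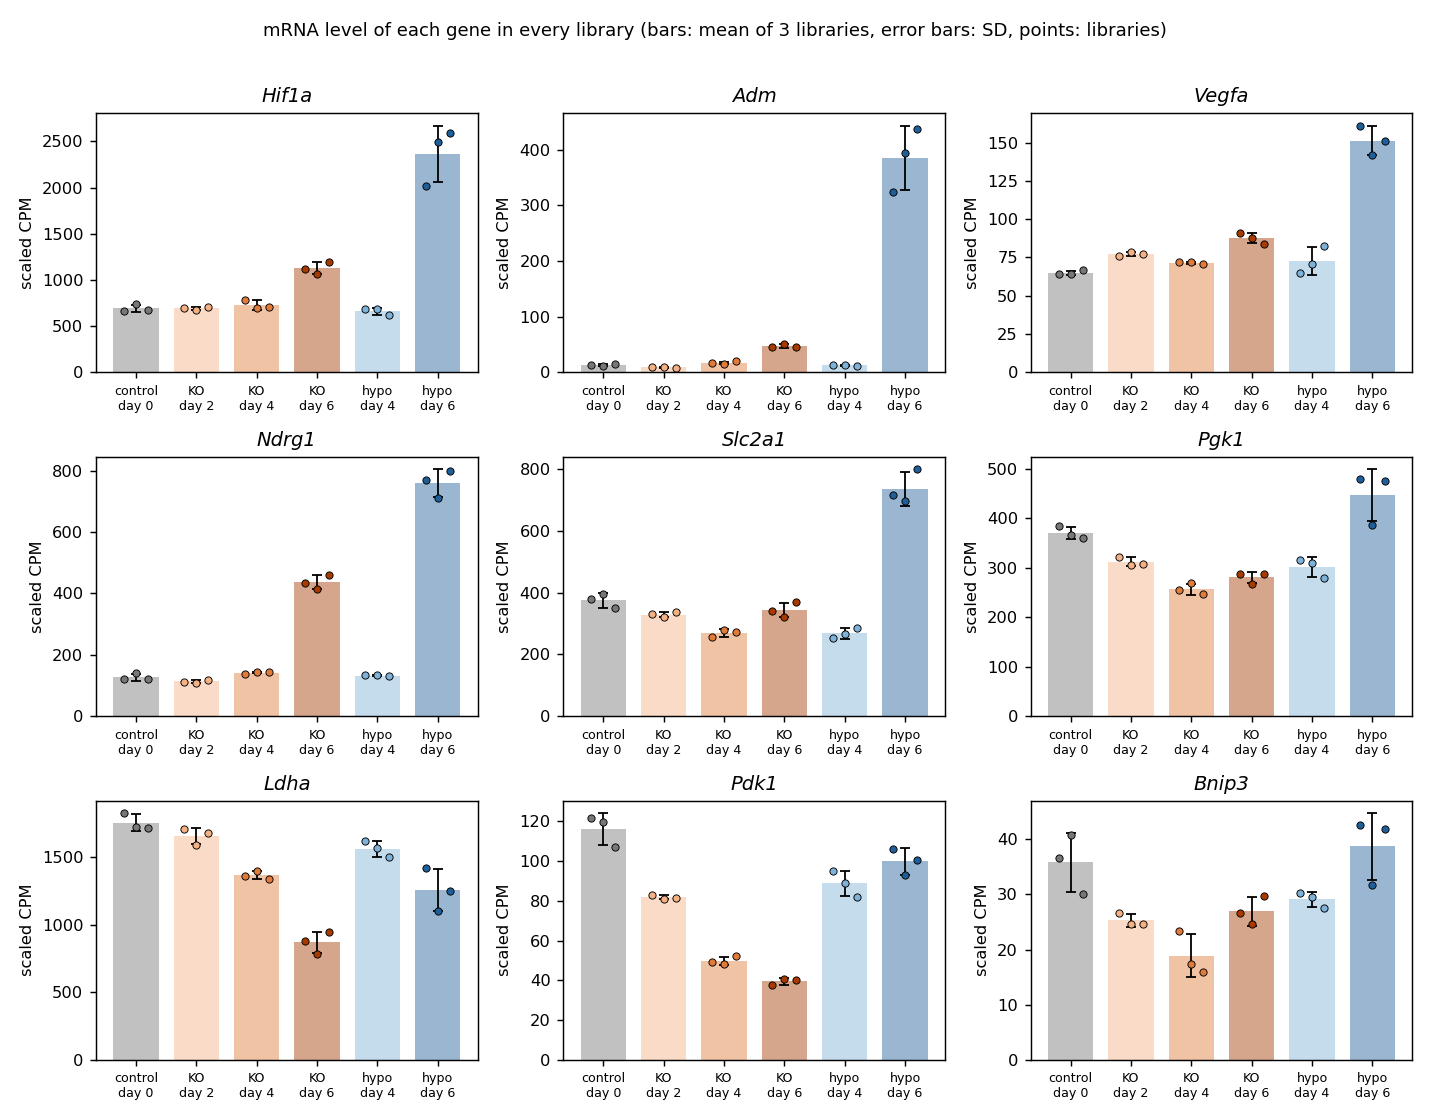
Level of each of the 9 genes in scaled CPM (vertical axes, each from 0) in control cells at day 0, KO cells at days 2, 4 and 6 and hypomorph (hypo) cells at days 4 and 6; points are libraries, bars the mean and error bars the SD of 3 libraries. Adm stands at 323 to 438 in hypomorph day 6 libraries and at 45.4 to 50.5 in KO day 6 libraries, and Pdk1 falls step by step along the KO series.

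Hif1a (chr12:73901324-73947554, GRCm38 as all gene positions here) encodes the oxygen-labile subunit itself. Along the KO series it measured 666, 736 and 677 scaled CPM in control, 701, 670.4 and 702 at day 2, 787, 698 and 703 at day 4, and 1122, 1069.6 and 1197 at day 6. In hypomorph libraries it measured 681, 689 and 618 at day 4 and 2017, 2489.5 and 2589 at day 6. The 2 day 6 groups did not overlap with each other or with any other group, and the control, KO day 2 and KO day 4 groups overlapped. The hypomorph day 4 libraries overlapped with control and KO day 2 and lay below KO day 4. Against control, Hif1a rose 3.40-fold in hypomorph cells at day 6 (log2 1.76 ± 0.08 SE, limma adjusted p = 5.16e-17) and 1.63-fold in KO cells at day 6 (log2 0.70 ± 0.08, adjusted p = 7.80e-09). In the order of its levels, hypomorph day 6 exceeded KO day 6 and KO day 6 exceeded KO day 4, whereas no pair of neighbours below that passed the test.

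Adm (chr7:110627657-110629820) encodes the precursor of adrenomedullin, a secreted peptide that widens vessels and acts on the receptor Calcrl. Along the KO series it measured 13.3, 12 and 15.7 scaled CPM in control, 8.64, 9.01 and 8.44 at day 2, 17.0, 15.5 and 19.4 at day 4, and 45.7, 50.5 and 45.4 at day 6. Hypomorph libraries held 13.5, 13.1 and 11.5 at day 4 and 323, 395 and 438 at day 6. Every KO day 2 library lay below every other library, and every hypomorph day 6 library lay far above all others. At day 6 Adm was 27.2-fold above control in hypomorph cells (log2 4.77 ± 0.12, adjusted p = 2.04e-22) and 3.39-fold above control in KO cells (log2 1.76 ± 0.12, adjusted p = 1.46e-13). It first fell in KO cells, 1.53-fold at day 2 (log2 -0.61 ± 0.12, adjusted p = 0.000423), and this call was lost without the 7 libraries over 100 scaled CPM of Alb (log2 -0.47, adjusted p = 0.0933). At day 4 the KO libraries overlapped with control (log2 0.33 ± 0.12, adjusted p = 0.0211). That call was lost in 5 of 14 alternatives, among them leaving out control library 1, control library 2 or KO library 3 (adjusted p = 0.0548, 0.117 and 0.122). Only hypomorph day 4 and control were neighbours in level whose difference missed the threshold. The lowest library held 234 reads of Adm, so counting error was small beside these changes.

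Vegfa (chr17:46016993-46032377) encodes the growth factor that drives vessel sprouting. Its scaled CPM along the KO series were 64.4, 64.2 and 66.6 in control, 75.9, 78.8 and 77.5 at day 2, 71.9, 72.1 and 70.8 at day 4, and 90.8, 87.5 and 84.1 at day 6. In hypomorph libraries they were 64.9, 70.5 and 82.7 at day 4 and 161, 142 and 151 at day 6. The KO libraries of all 3 days lay above control, while hypomorph day 4 overlapped with control. The rise was 2.31-fold in hypomorph cells at day 6 (log2 1.21 ± 0.08, adjusted p = 1.60e-13) and 1.34-fold in KO cells at day 6 (log2 0.42 ± 0.08, adjusted p = 3.06e-05). The smaller rise at KO day 2 (log2 0.25 ± 0.08, adjusted p = 0.0291) missed the threshold in 9 of 14 alternatives, among them leaving out any 1 KO day 2 library or control library 1 or 2 (adjusted p of 0.0618 to 0.0896). Below hypomorph day 6 no neighbours in the order of levels differed.

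Ndrg1 (chr15:66929318-66969641) encodes a stress-induced protein that is also raised when epithelial cells differentiate. Control libraries held 119, 140.5 and 119 scaled CPM, KO libraries 112, 108 and 118 at day 2, 138, 142 and 142 at day 4, and 434, 414 and 461 at day 6. Hypomorph libraries held 133, 133 and 129 at day 4 and 770.2, 709.7 and 798 at day 6. Both day 6 groups stood clear of all earlier libraries. Against control the level rose 6.00-fold in hypomorph cells at day 6 (log2 2.59 ± 0.07, adjusted p = 3.37e-21) and 3.45-fold in KO cells at day 6 (log2 1.79 ± 0.07, adjusted p = 3.65e-18). At KO day 4 the difference missed the threshold (log2 0.16 ± 0.07, adjusted p = 0.0710) but passed it without control library 2 (log2 0.24, adjusted p = 0.0121). The KO day 6 rise coincided with the higher summed suprabasal markers of those libraries, and the part of those markers in it was not tested. In hypomorph day 6 libraries, where Ndrg1 was highest, that sum (1352 to 1551 scaled CPM) lay within the range of control libraries (845 to 2854). Single markers there went both ways, as with this pair named after their values were seen. Sbsn measured 529 to 570 scaled CPM, against 253 to 285 in control libraries, and Tgm1 13.2 to 20.6, against 24.4 to 42.1 in control libraries. Krt4, Krt13 and Ivl overlapped with control.

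Slc2a1 (chr4:119108745-119137330) encodes GLUT1, the basal glucose transporter. It measured 379.5, 395 and 349 scaled CPM in control, 331, 319.6 and 336 in KO day 2, 256, 280.3 and 272 in KO day 4, and 342, 320.3 and 368 in KO day 6 libraries. Hypomorph libraries had 253, 265 and 286 at day 4 and 715, 696 and 799.6 at day 6. KO and hypomorph libraries of day 4 lay together below control, KO day 6 overlapped with control, and hypomorph day 6 stood above all others. Slc2a1 fell at day 4 in both hypomorph (log2 -0.48 ± 0.07, adjusted p = 1.16e-05) and KO cells (log2 -0.47 ± 0.07, adjusted p = 5.66e-06), against control. At day 6 it was 1.97-fold above control in hypomorph cells (log2 0.97 ± 0.07, adjusted p = 2.54e-12), while the KO difference missed the threshold (log2 -0.13 ± 0.07, adjusted p = 0.128). The KO day 2 value (log2 -0.19 ± 0.07, adjusted p = 0.0758) passed without control library 3 (log2 -0.24, adjusted p = 0.0405). The day 4 groups of KO and hypomorph cells were neighbours that did not differ (adjusted p = 0.944).

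Pgk1 (chrX:106187100-106203699) encodes phosphoglycerate kinase, which makes the first ATP of glycolysis. Control libraries measured 384, 366 and 361 scaled CPM, KO libraries 323, 306 and 309 at day 2, 254, 269 and 248 at day 4, and 287, 268 and 287 at day 6. Hypomorph libraries measured 316, 309.9 and 279 at day 4 and 480.1, 388 and 475 at day 6. All KO and hypomorph day 4 libraries lay below all control libraries, and all hypomorph day 6 libraries above them. Pgk1 fell in KO cells at day 4 (log2 -0.53 ± 0.08, adjusted p = 1.91e-06) and day 6 (log2 -0.40 ± 0.08, adjusted p = 3.23e-05), and in hypomorph cells at day 4 (log2 -0.30 ± 0.08, adjusted p = 0.00337). The calls of KO day 6 and hypomorph day 4 were each lost in 1 of 14 alternatives. The fall at KO day 2 (log2 -0.24 ± 0.08, adjusted p = 0.0236) was lost in 4 of 14. Among these were leaving out control library 1, KO library 2 or KO library 3 (adjusted p = 0.101, 0.0794 and 0.0845). In hypomorph cells at day 6 Pgk1 was above control (log2 0.27 ± 0.08, adjusted p = 0.00299). That call was lost in 2 of 14 alternatives, among them libraries rescaled to equal totals (log2 0.08, adjusted p = 0.275).

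Ldha (chr7:46842274-46855627) encodes the lactate dehydrogenase subunit that turns pyruvate into lactate. Along the KO series it held 1827, 1727 and 1715 scaled CPM in control, 1705, 1590.1 and 1679 at day 2, 1361, 1401 and 1340.3 at day 4, and 879, 783 and 944 at day 6. Hypomorph libraries had 1618, 1568 and 1499 at day 4 and 1419, 1105 and 1249 at day 6. Every library of the other groups lay below every control library, and KO day 6 was the lowest group. Ldha was lower than control at day 6 in hypomorph cells (log2 -0.49 ± 0.08, adjusted p = 2.86e-06) and in KO cells (log2 -1.02 ± 0.08, adjusted p = 2.25e-12), and at day 4 in KO cells (log2 -0.36 ± 0.08, adjusted p = 0.000354). The KO day 4 call was lost in 1 of 14 alternatives. The hypomorph day 4 value (log2 -0.17 ± 0.08) missed the threshold at adjusted p = 0.0950. Of neighbours in level only hypomorph day 6 and KO day 6 differed. Processed pseudogenes of both Ldha and Pgk1 are annotated, and how the authors' counting split reads with them is not given, so these levels carry that uncertainty.

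Pdk1 (chr2:71873215-71903858) encodes a kinase that switches off pyruvate dehydrogenase. Control libraries had 122, 119.5 and 107 scaled CPM, KO libraries 82.8, 81.1 and 81.5 at day 2, 49.1, 48.3 and 52.2 at day 4, and 37.6, 40.6 and 40.3 at day 6. Hypomorph libraries had 95.2, 88.8 and 82.1 at day 4 and 106, 92.8 and 101 at day 6. The 4 groups of the KO series did not overlap, and each step down passed the test. The fall against control was 1.41-fold at day 2 (log2 -0.50 ± 0.08, adjusted p = 4.39e-05), 2.31-fold at day 4 (log2 -1.21 ± 0.08, adjusted p = 8.84e-13) and 2.91-fold at day 6 (log2 -1.54 ± 0.08, adjusted p = 5.93e-16). Reads were counted over a fixed length of 6152 bases, and the part of a changed poly(A) site in this fall was not tested. In hypomorph cells the fall was smaller, log2 -0.39 ± 0.08 at day 4 (adjusted p = 0.000438) and log2 -0.22 ± 0.08 at day 6 (adjusted p = 0.0179). The day 6 call was lost in 5 of 14 alternatives, among them leaving out control library 1, control library 2 or hypomorph library 2 (adjusted p = 0.0808, 0.0606 and 0.0932).

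Bnip3 (chr7:138890836-138909506) encodes an outer-membrane protein that marks mitochondria for removal. It had 36.7, 40.8 and 30.1 scaled CPM in control, 26.6, 24.6 and 24.6 in KO day 2, 23.3, 17.3 and 16.0 in KO day 4 and 26.5, 24.6 and 29.7 in KO day 6 libraries. In hypomorph libraries it had 30.2, 29.6 and 27.6 at day 4 and 42.6, 31.7 and 41.8 at day 6. All KO libraries were below all control libraries, while both hypomorph groups overlapped with control. Bnip3 fell in KO cells at day 4 (log2 -0.92 ± 0.13, adjusted p = 1.96e-06). The falls at day 2 (log2 -0.49 ± 0.13, adjusted p = 0.010) and day 6 (log2 -0.40 ± 0.13, adjusted p = 0.00855) were lost without control library 2 (adjusted p = 0.0674 and 0.0627). In all, the day 6 call was lost in 2 of 14 alternatives. In hypomorph cells neither day 4 (log2 -0.29 ± 0.13, adjusted p = 0.0994) nor day 6 (log2 0.11 ± 0.13, adjusted p = 0.475) passed, and day 4 passed without control library 3 (log2 -0.40, adjusted p = 0.0320).

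**Figure D2:**
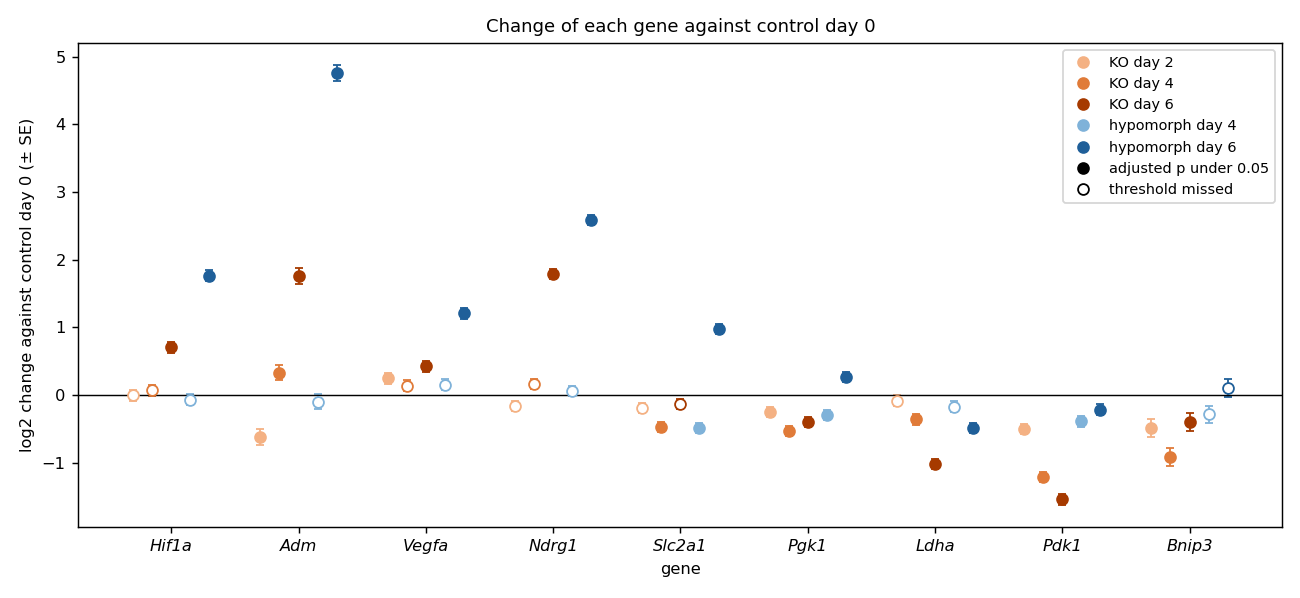
Log2 change of each gene (horizontal axis) against control day 0 with its SE (vertical axis) in KO cells at days 2, 4 and 6 and hypomorph cells at days 4 and 6; filled points passed the limma threshold of adjusted p 0.05 and open points missed it. The largest rise is that of Adm in hypomorph cells at day 6 (4.77), and the largest fall that of Pdk1 in KO cells at day 6 (-1.54).

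Counted over the list, the balance of higher and lower genes changed with time. At KO day 2, 1 gene was higher and 4 lower than control, beside 11.7% and 7.29% of all tested genes. At KO day 4, 1 was higher and 5 lower, beside 23.7% and 22.3%. At KO day 6, 4 were higher and 4 lower, beside 33.6% and 37.5%, so the share of higher or lower calls among the 9 was near that of all genes. At hypomorph day 4, 0 were higher and 3 lower by limma, beside 17.5% and 14.1%. At hypomorph day 6, 6 were higher and 2 lower, beside 35.9% and 31.3%, and the median log2 change was 0.97 for the 9 genes and 0.03 for all genes. These comparisons with control share their control libraries. Between hypomorph day 6 and hypomorph day 4, 7 of the 9 genes were higher, beside 31.9% of all tested genes, and 1 was lower, beside 30.0%. The higher ones ranged from Bnip3 (log2 0.39 ± 0.13) to Adm (log2 4.86 ± 0.12), the lower one was Ldha (log2 -0.32 ± 0.08), and Pdk1 missed the threshold (log2 0.17 ± 0.08, adjusted p = 0.0640). The authors' deposited table, at its own false discovery rate of 0.05, called the same genes as the limma fit in each of the 5 comparisons with control.

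Hypomorph and KO cells of the same day were then compared directly. At day 4, 3 genes were higher in hypomorph cells, beside 13.9% of all tested genes, and 1 was lower, beside 10.7%. The higher ones were Pdk1 (log2 0.82 ± 0.08, adjusted p = 1.27e-08), Bnip3 (log2 0.63 ± 0.13, adjusted p = 0.000792) and Pgk1 (log2 0.23 ± 0.08, adjusted p = 0.0274), and the lower one was Adm (log2 -0.43 ± 0.12, adjusted p = 0.00822). The Adm call was lost in 3 of 14 alternatives, among them leaving out KO day 4 library 3 or hypomorph day 4 library 3 (adjusted p = 0.0584 and 0.0558). The Pgk1 call was lost in 5 of 14, among them leaving out KO library 1 or 3 or hypomorph library 1 or 2 (adjusted p of 0.0759 to 0.115). At day 6 all 9 genes were higher in hypomorph than in KO cells, beside 37.7% of all tested genes, with a median log2 of 0.80 against 0.07 for all genes. In order of size the log2 differences were 3.01 ± 0.12 for Adm, 1.32 ± 0.08 for Pdk1, 1.10 ± 0.07 for Slc2a1, 1.06 ± 0.08 for Hif1a, 0.80 ± 0.07 for Ndrg1, 0.79 ± 0.08 for Vegfa, 0.67 ± 0.08 for Pgk1, 0.53 ± 0.08 for Ldha and 0.51 ± 0.13 for Bnip3. Every hypomorph day 6 library lay above every KO day 6 library in each of the 9 genes. The share of all tested genes of which this holds was not counted. The largest adjusted p among the 9 was 0.00146, for Bnip3. The Bnip3 call was lost without the 7 libraries high in Alb (log2 0.36, adjusted p = 0.0637). Between day 4 and day 6, 8 of the 9 genes moved higher in hypomorph than in KO cells by a test of that difference (interaction in the limma fit), beside 27.4% of all tested genes, with a median of 0.77 for the 9 and 0.09 for all genes. At equal library totals 6 of the 9 passed.

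The deposited column totals were larger for hypomorph day 6 libraries than for the others (1.07 to 1.17 M scaled CPM, against 0.910 to 0.988 M in KO day 6 libraries). Rescaling all libraries to equal totals moved the median change of all genes by -0.21 (log2) in hypomorph against KO cells at day 6 and by -0.18 in hypomorph cells at day 6 against control. All 9 genes were still called higher in hypomorph than in KO cells at day 6 on that scale, where 3292 genes were higher and 4847 lower, against 4651 and 3337 on the authors' scale. Against control, hypomorph day 6 then had 5 of the 9 genes higher and 2 lower, with 3445 genes higher and 5078 lower, against 4437 and 3861 on the authors' scale.

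**Figure D3:**
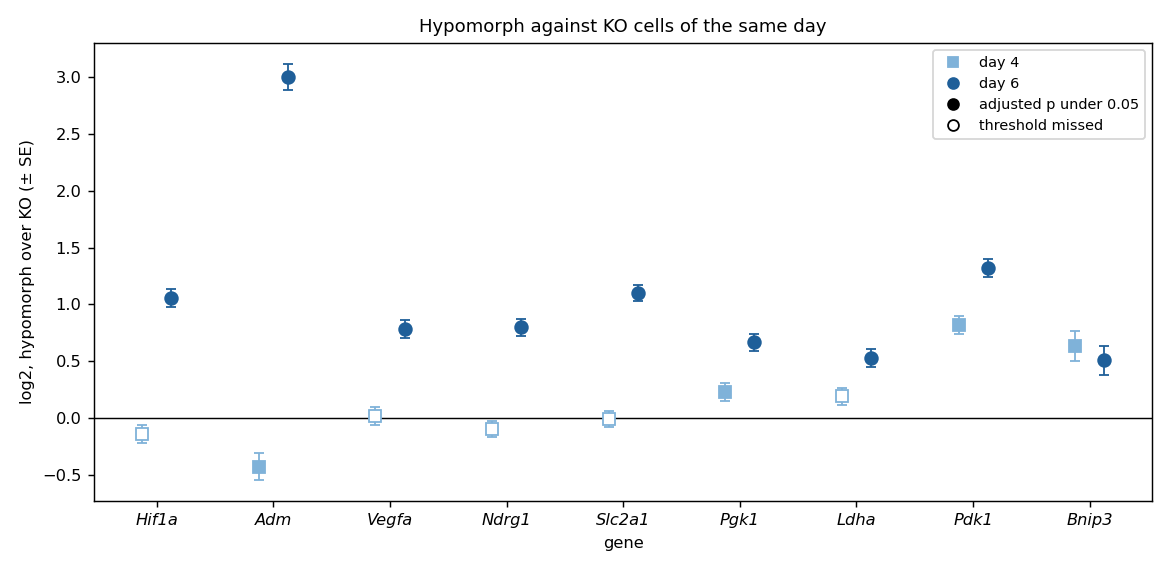
Log2 difference of hypomorph over KO cells with its SE (vertical axis) for each gene (horizontal axis) at day 4 (squares) and day 6 (circles); filled points passed the limma threshold of adjusted p 0.05. At day 6 all 9 points are above 0, from 0.51 for Bnip3 to 3.01 for Adm, whereas at day 4 only Pdk1, Bnip3 and Pgk1 pass above 0 and Adm (-0.43) passes below it.

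Expressed per kilobase of counted length, Ldha was the most abundant of the 9 in every group. The counted length is fixed for each gene and does not follow a change of poly(A) site. Ranks of genes with such a change, such as Pdk1 and Slc2a1 in KO cells at day 4, carry that uncertainty. In control cells Adm was the least abundant, with 9.89 scaled CPM per kb, against 909.9 for Ldha, 203 for Pgk1, 139.7 for Slc2a1 and 139.6 for Hif1a. In hypomorph cells at day 6 Adm reached 279 per kb and ranked the third, behind Ldha (652) and Hif1a (477) and beside Slc2a1 (275), Ndrg1 (263) and Pgk1 (245). In KO cells at day 6 Pdk1 was the least abundant at 6.42 per kb, below Bnip3 (15.3), Vegfa (21.0) and Adm (34.2).

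**Figure D4:**
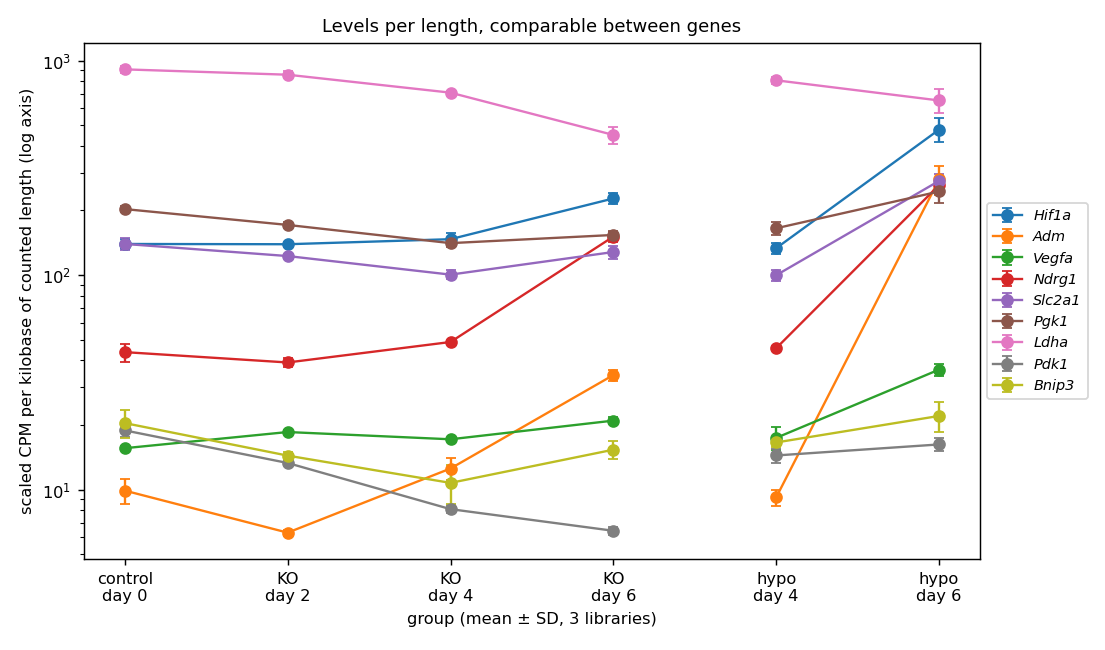
Mean level per kilobase of counted length (vertical log axis, scaled CPM per kb, ± SD of 3 libraries) of the 9 genes in the 6 groups (horizontal axis; hypo, hypomorph), with lines joining groups of one treatment and the control with the KO series. Adm moves to 279 in hypomorph cells at day 6, against 9.20 at hypomorph day 4, while Ldha stays the highest line in all groups.

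Other genes of the pathway moved in both directions, and their counts are to be read beside all tested genes, of which 35.9% were higher and 31.3% lower in hypomorph cells at day 6 against control, and 33.6% higher and 37.5% lower in KO cells at day 6. Among 10 tested HIF subunits and oxygen sensors, 2 were higher and 5 lower in hypomorph cells at day 6, and 5 were higher and 3 lower in KO cells at day 6, against control. Arnt, the stable partner subunit, rose in both (log2 0.68 ± 0.08 and 0.52 ± 0.08), while the prolyl hydroxylases Egln1 (log2 -0.72 ± 0.08 and -0.97 ± 0.08) and Egln3 (log2 -1.67 ± 0.11 and -1.16 ± 0.11) fell in both. The other prolyl hydroxylase, Egln2, named after its values were seen, was among those that missed the threshold in hypomorph cells and among those higher in KO cells. Egln3, itself a gene that hypoxia raises, measured 28.4 ± 5.99 scaled CPM in hypomorph day 6, 40.2 ± 5.11 in KO day 6 and 90.1 ± 2.70 in control cells (SD, n = 3 each).

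Among 24 other tested hypoxia-induced genes, 9 were higher and 8 lower in hypomorph cells at day 6, and 8 were higher and 11 lower in KO cells at day 6, against control. Their median log2 change was 0.05 and -0.18, beside 0.03 and -0.03 for all genes. The lists share genes, and Egln1 and Egln3 are counted both here and among the HIF subunits and oxygen sensors. Lox, which cross-links collagen, reached 17.3 ± 2.97 scaled CPM in hypomorph day 6 and 6.49 ± 0.632 in KO day 6 cells, against 0.407 ± 0.0763 in control (log2 4.29 ± 0.24 and 2.94 ± 0.24). Car12, a carbonic anhydrase of the cell surface, fell in hypomorph (log2 -0.37 ± 0.08) and in KO cells at day 6 (log2 -0.93 ± 0.08). Between hypomorph and KO cells at day 6, 14 of the 24 were higher and 4 lower, beside 37.7% and 27.0% of all tested genes, with a median log2 of 0.35, against 0.07 for all genes on the authors' scale.

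Glycolytic enzymes other than Pgk1 and Ldha gave 8 higher and 4 lower of 15 in hypomorph cells at day 6 and 7 higher and 7 lower in KO cells at day 6, beside 35.9% and 31.3%, and 33.6% and 37.5%, of all tested genes. Hk1, a hexokinase that starts glycolysis, measured 163 ± 16.2 scaled CPM in hypomorph day 6, 293 ± 24.9 in KO day 6 and 130.1 ± 14.6 in control cells. Pfkl and Pgam1, enzymes of the upper and lower pathway, fell in both. Of 8 glucose and lactate transporters other than Slc2a1, 4 were higher and 2 lower in each of the day 6 groups. The lactate carrier Slc16a1 held 288 ± 13.3 in hypomorph day 6, 103 ± 2.82 in KO day 6 and 280.3 ± 7.09 scaled CPM in control cells, so it fell in KO cells (log2 -1.44 ± 0.07) and its hypomorph difference missed the threshold (log2 0.04 ± 0.07, adjusted p = 0.635). The glucose transporters Slc2a12 and Slc2a6 were higher than control in both groups, Slc2a6 by log2 0.89 ± 0.25 in hypomorph and 3.44 ± 0.25 in KO cells. Slc2a6 was low, at 0.718 ± 0.147 scaled CPM in control, 1.77 ± 0.402 in hypomorph day 6 and 12.8 ± 1.58 in KO day 6 cells. At hypomorph day 4 it already measured 1.87 ± 0.790.

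The pyruvate dehydrogenase complex, on which the Pdk1 kinase acts, had 8 of 12 genes higher and 4 lower in hypomorph cells at day 6, and 4 higher and 5 lower in KO cells at day 6. The KO counts were near the 33.6% and 37.5% of all tested genes, and the hypomorph counts stood beside 35.9% and 31.3%. Pdha1, its catalytic subunit and the target of the kinase, was 353 ± 37.9 scaled CPM in hypomorph day 6, 179 ± 15.3 in KO day 6 and 249 ± 6.34 in control cells, higher in hypomorph (log2 0.50 ± 0.08) and lower in KO (log2 -0.48 ± 0.08) than in control. Pdp2, a phosphatase that reverses the kinase, fell in both (log2 -1.29 ± 0.11 and -1.10 ± 0.11).

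Around Adm, 4 of 7 receptor and processing genes were tested, and Calcrl, Ramp1 and Ramp2 were not among the tested genes. Ackr3, which binds and clears adrenomedullin, fell in hypomorph cells (6.62 ± 0.814 scaled CPM) and in KO cells (3.54 ± 0.306) at day 6, against 41.1 ± 3.15 in control cells, or log2 -2.55 ± 0.12 and -3.36 ± 0.12. Pam, the enzyme that amidates the peptide, was higher in hypomorph (log2 0.30 ± 0.07) and lower in KO cells at day 6 (log2 -0.18 ± 0.07), and the related peptide gene Adm2 rose in both. Of 4 tested genes of the VEGF family and its receptors, 2 were higher and 2 lower in hypomorph day 6 and 0 were higher and 2 lower in KO day 6 by limma; the co-receptors Nrp1 and Nrp2 fell in both. In the Ndrg family and Myc genes, 2 were higher and 2 lower of 6 in each day 6 group, with Ndrg4 rising and Myc falling in both. Of 7 tested mitophagy genes, 3 were higher and 0 lower in hypomorph day 6, and 3 higher and 2 lower in KO day 6, with the share of higher genes near the 35.9% and 33.6% of all tested genes. The cargo receptor Sqstm1 rose to 566 ± 42.1 and 542 ± 35.1 scaled CPM, against 115 ± 7.06 in control.

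PAS-seq, which reads transcript ends, was deposited with 1 value per gene and group, the use of the proximal over the distal poly(A) site, pooled over the samples of a group (KO day 4 and control), so it carries no spread and no depth. Of the 9 genes 4 were listed. In Pdk1 the proximal share was 64.4% in KO and 4.03% in control cells, and the authors' deposited table called it Short in KO cells, as it did 49.4% of its 4324 genes. Its ratio of ratios, 43.0, was above 87.2% of the genes with a finite one. In Slc2a1 the proximal share was 23.4% in KO and 6.86% in control cells, and the call in KO cells was Short as well. Its ratio of ratios, 4.14, was above 45.1% of the genes with a finite one. Bnip3 had 79.2% in KO and 90.2% in control cells and Ldha 0.00925% and 0.0166%, and neither was called. Both called genes also measured lower mRNA at KO day 4 in the separate mRNA libraries (Pdk1 log2 -1.21, Slc2a1 log2 -0.47), as did the uncalled Bnip3 (-0.92) and Ldha (-0.36). Reads were counted over a fixed length per gene, so a shorter transcript end can lower the count with no fewer transcripts. The part of this in these falls was not tested. Of the pathway genes listed there, 21 of 37 were called Short in KO cells and 0 were called Long, beside 49.4% and 2.20% of all genes.

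**Figure D5:**
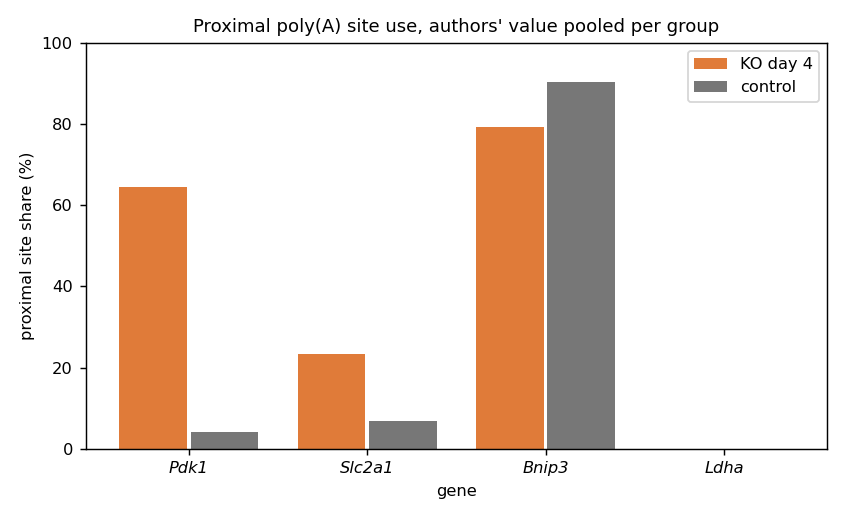
Share of proximal poly(A) site use in percent (vertical axis) for the 4 listed genes (horizontal axis) in KO cells at day 4 and control cells, computed from the authors' 1 pooled ratio per group. Pdk1 stands at 64.4% in KO and 4.03% in control cells, and Ldha is near 0 in both.

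Small RNA sequencing gave miR-210-3p at 229 scaled CPM in KO cells at day 4 and 139.8 in control cells, a ratio of 1.64. In the authors' deposited table its log2 change was 0.71 with a false discovery rate of 0.00884, and they did not call it changed. The miRNAs they called had an absolute log2 change of 0.817 or more and a false discovery rate of up to 0.0326. A false discovery rate under 0.05 was listed for 58 of the 682 miRNAs. The other arm, miR-210-5p, had 19.9 in KO and 31.0 scaled CPM in control cells, with log2 -0.64 and a false discovery rate of 0.327 in the authors' deposited table. The columns of a group were identical in all 682 miRNAs, so these values have no spread of their own.

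For 3 of the genes the closest patterns over the 6 group means were sought among all tested genes that averaged 5 scaled CPM or more. Adm was followed most closely by Ndfip2 (Pearson r = 0.998), Arl8b (0.996) and Rtn4r (0.995). The likeness is of shape and not of size: the hypomorph day 6 mean was 1.88 times the control mean for Ndfip2, 1.69 times for Arl8b and 6.36 times for Rtn4r, against 28.2 times for Adm. Pdk1 was followed by Ggcx (0.997), Sde2 (0.996) and Ddx17 (0.995), and Bnip3 by Tspan9 (0.985), Ergic1 (0.984) and Snap29 (0.982). Among the 9 genes, the group means of Hif1a ran closest to those of Adm (r = 0.991) and Vegfa (0.973) and opposite to those of Ldha (-0.54). These are descriptions over 6 groups that share a time course and libraries. In bulk samples, fewer cells of a type and less RNA per cell cannot be told apart.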

How the data were processed

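The libraries were directional and poly(A)-selected, per the labels' protocols. The submitters' processing notes name STAR and featureCounts for mRNA (build mm10) and PAS-seq (build mm9), and for small RNA (mm10) also Bowtie, SAMtools, Subread and edgeR; versions are not given in the sources used here. The deposited mRNA table holds a signal per gene and library, scaled by the authors. The design assumed CPM, but column totals ran from 0.910 to 1.17 M, so values are written scaled CPM. The authors also deposited a log2 change and p-value per comparison, a PAS ratio per gene and group, and the counted length. The hypomorph PAS ratios equalled the KO ratios in 3397 of 4324 genes and were not used.

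Whole reads were recovered from the signal (100% of values within 0.1 of a whole read). Genes with at least 1 scaled CPM in 3 libraries were tested two-sided with limma 3.58.1 (R 4.3.3) on log2(scaled CPM + 0.5), 1 fit over 18 libraries, trended and robust, with Benjamini-Hochberg adjustment over all tested genes and a threshold of 0.05. Fold changes are on that scale and understate those of low genes. edgeR 4.0.16 (quasi-likelihood, TMM) on recovered reads was an alternative; it called 8767 genes in KO cells at day 6 against control, where limma called 8776. The code was tested on simulated data. The 9 genes and all lists were chosen with earlier results of these data known. Named genes of a pathway list were taken from the 3 with the smallest p in KO day 6 against control, and genes of like pattern were the 3 with the highest Pearson r of log2 values over the 6 group means, provisional symbols, pseudogenes and mitochondrial genes left out.

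The correlation of deviations was over 0.1 for all 3 replicate numbers between KO day 4 and control (r of 0.27 to 0.71) and in no other pair of groups. It was below -0.1 for all 3 between control and KO day 2 (r of -0.68 to -0.12) and between KO day 2 and KO day 4 (r of -0.81 to -0.38). The labels do not say that a number marks a shared culture, and the part of libraries high in Alb in these values was not tested. A fit with the replicate number as a block called 6 of the 9 genes in KO day 4 against control, as did the fit without it.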

Additional observations from a re-analysis of the deposited data

Results flagged for a closer look

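For 8 of the 9 genes the change between day 4 and day 6 differed between hypomorph and KO cells by a test of the difference itself (interaction of day and state in the limma fit, 3 libraries a group), beside 27.4% of all tested genes with a larger change in hypomorph cells. The difference, hypomorph minus KO, was 3.43 ± 0.17 (log2) for Adm (adjusted p = 9.28e-15), 1.197 ± 0.11 for Hif1a (adjusted p = 3.30e-09), 1.11 ± 0.10 for Slc2a1 (adjusted p = 2.77e-09), 0.89 ± 0.10 for Ndrg1 (adjusted p = 8.23e-08), 0.77 ± 0.11 for Vegfa (adjusted p = 3.60e-06), 0.50 ± 0.11 for Pdk1 (adjusted p = 0.000635), 0.44 ± 0.11 for Pgk1 (adjusted p = 0.00154) and 0.34 ± 0.11 for Ldha (adjusted p = 0.0125). With libraries rescaled to equal totals the calls of Pgk1 (0.22, adjusted p = 0.0537) and Ldha (0.12, adjusted p = 0.303) were lost. Adm rose between the days by log2 4.86 ± 0.12 in hypomorph and by 1.43 ± 0.12 in KO cells. Ldha fell in both, by log2 -0.32 ± 0.08 in hypomorph and -0.66 ± 0.08 in KO cells, and Pdk1 fell in KO cells (-0.33 ± 0.08) while its hypomorph change missed the threshold (0.17 ± 0.08). Bnip3 was the exception, with -0.12 ± 0.19 (adjusted p = 0.620). Doxycycline was given to hypomorph cells only, and its part in these differences cannot be told apart from that of the hypomorph state.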

How the results depend on the processing

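The alternatives were a pseudocount of 2, no filter on low values, a replicate block, edgeR on recovered reads, libraries rescaled to equal totals, depth class as a covariate, only the groups compared, leaving out the 7 libraries over 100 scaled CPM of Alb, and leaving out each library in turn. No call of the 9 genes reversed under any of them. Of their called values 1467 kept the call and 65 lost it, and 33 values that had missed the threshold passed it. Counts of called genes among the 9 moved by over 1.5 times in 4 comparisons when libraries high in Alb were left out: 2 in KO day 2 against control (5 with all libraries), 2 in hypomorph against KO day 4 (4 with all), 5 in the interaction (8 with all) and 3 in KO day 4 against day 2 (7 with all). That setting leaves several groups with 1 library, assumed to vary like the others. Leaving out 1 library gave 3 to 6, 2 to 4, 8 to 8 and 6 to 7 calls in these 4 comparisons. It gave 5 to 6 for KO day 4, 7 to 8 for KO day 6, 3 to 4 for hypomorph day 4 and 7 to 8 for hypomorph day 6 against control, and 9 to 9 for hypomorph against KO day 6. The replicate block added 1 call among the 9, Ldha in hypomorph against KO day 4 (log2 0.19, adjusted p = 0.0466), and lost none in the comparisons above.

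Over all genes, KO day 2 against control had 2342 calls by limma, against 1074 with depth class as a covariate, 1062 without libraries high in Alb, and 1553, 1547 and 1382 without control library 1, KO library 1 or KO library 3. Its split was 1442 higher and 900 lower, against 985 and 1373 at equal totals and 1145 and 1313 by edgeR. Without libraries high in Alb the calls numbered 1998 for hypomorph day 4 against control (3908 with all), 2816 for KO day 4 against control (5675), 1109 for hypomorph against KO day 4 (3026), 1527 for KO day 4 against day 2 (3916), 4492 for KO day 6 against day 4 (7366) and 3503 for the interaction (5636). The causes were not tested.

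Signs turned only for values near 0 that had missed the threshold. At equal totals these were Bnip3 in hypomorph day 6 against control (-0.074), Pdk1 in hypomorph day 6 against day 4 (-0.0024), and Hif1a (0.0024) and Pgk1 (0.011) in hypomorph day 4 against KO day 2. With depth as a covariate they were Hif1a in KO day 4 against control (-0.010), Slc2a1 in hypomorph against KO day 4 (0.015), and Hif1a (0.021) and Pgk1 (0.0019) in hypomorph day 4 against KO day 2. Without libraries high in Alb they were Bnip3 in hypomorph day 6 against control (-0.086) and in hypomorph day 4 against KO day 6 (-0.029), Ndrg1 (-0.091) and Adm (0.076) in hypomorph day 4 against control, and Hif1a in KO day 4 against control (-0.076) and against KO day 2 (-0.0065). With 1 library left out, values against control ran from -0.031 to 0.041 for Hif1a in KO day 2, from -0.18 to 0.0050 for Adm in hypomorph day 4 and from -0.011 to 0.24 for Bnip3 in hypomorph day 6. In hypomorph against KO day 4 they ran from -0.057 to 0.032 for Slc2a1 and from -0.082 to 0.093 for Vegfa. Pgk1 in hypomorph day 4 against KO day 2 ran from -0.089 to 0.0029, and the Bnip3 interaction from -0.28 to 0.012.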
